A study of Caenorhabditis elegans with 2 samples.

Results

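ZNF-207 peaks were described in the 2 domains of chromosome IV that hold most genes for Piwi-interacting RNAs (piRNAs) in Caenorhabditis elegans. The left domain was taken as 4.5 to 7.0 Mb and the right domain as 13.5 to 17.2 Mb, and a peak was a member when its summit lay between these bounds. Of the 30000 peaks of the list made from both replicates together (the pooled list), 4991 lay on chromosome IV and 1568 of these were members, 766 in the left domain and 802 in the right. The other 3423 peaks of the chromosome are called here the rest of chromosome IV. The pooled list was deposited as peaks together with background. Its median −log10 q-value, the deposited measure of significance, was 0.141 for members and 0.179 for the rest. Most members were thus weak calls, and the counts below are of calls, not of proven binding sites. Members with the nearest summits inside the bounds had signals of 27.8 and 25.9 in the left domain and 24.3 and 20.7 in the right. The nearest peaks outside those bounds had signals of 21.6 and 16.96 at the left domain and 18.2 and 19.97 at the right.

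The peaks came from chromatin immunoprecipitation followed by sequencing with an anti-GFP antibody, which pulled down ZNF-207 (sequence name B0035.1), a zinc finger protein, with a C-terminal GFP-FLAG fusion in transgenic strain xtl1186. There was 1 group of 2 biological replicates, both of whole young adult hermaphrodites collected 50 hours after synchronization by bleaching and L1 starvation. Whole animals mix the germline with all somatic tissues, so the cells that gave a peak cannot be told. No untagged or input sample was analysed here, so none of the values below is set against a control. The domains are therefore compared with the rest of the same chromosome.

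In C. elegans, piRNAs are short RNAs that begin with U, known as 21U-RNAs, and the germline Argonaute PRG-1 carries them to foreign and transposon-like transcripts. Each is made from its own small transcription unit, and most of these units lie in the chromosome IV domains, between and inside protein-coding genes. An upstream motif with the core CTGTTTCA marks many of them, and the proteins SNPC-4 and PRDE-1 are known to occupy the domains in the germline. SNPC-4 belongs to a complex that also serves small nuclear RNA genes. The annotation used here (Ensembl release 115, assembly WBcel235, the same sequence as ce11) placed 14204 piRNA genes in the domains, 2816 on the left and 11388 on the right, against 510 on the rest of chromosome IV.

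The sequences at the peak of highest signal in each domain are shown first, because neither lies at a piRNA gene. They are the ce11 plus strand, 201 bases centred on the summit, at chrIV:4749966-4750166 for the left domain and chrIV:15471485-15471685 for the right. Capitals would mark the piRNA motif core CTGTTTCA or the tRNA B box GTTCGANNC on either strand, and neither window holds them.
rpl-20 and Y17G9B.5 summit: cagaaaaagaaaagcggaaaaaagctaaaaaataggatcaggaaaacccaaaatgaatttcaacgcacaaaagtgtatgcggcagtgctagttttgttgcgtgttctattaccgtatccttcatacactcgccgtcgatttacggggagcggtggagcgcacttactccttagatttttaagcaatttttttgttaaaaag
ntl-11 summit: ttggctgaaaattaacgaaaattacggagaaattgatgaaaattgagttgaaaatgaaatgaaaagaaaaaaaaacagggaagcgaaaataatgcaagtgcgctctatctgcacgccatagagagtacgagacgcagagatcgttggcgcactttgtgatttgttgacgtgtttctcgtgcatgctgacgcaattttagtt

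The next pair of windows is the summit of highest signal within 200 bp of a piRNA gene in each domain, at chrIV:5967034-5967234 and chrIV:14224932-14225132, plus strand. Both summits also lie within 200 bp of a tRNA gene. In the windows capitals mark the B box, which was found in the left window only. Below them are the piRNA genes nearest to those summits, each with 60 bases upstream, at chrIV:5967029-5967109 and chrIV:14224908-14224988, both on the plus strand. Capitals there mark the annotated piRNA.
tRNA gene WBGene00022903 summit: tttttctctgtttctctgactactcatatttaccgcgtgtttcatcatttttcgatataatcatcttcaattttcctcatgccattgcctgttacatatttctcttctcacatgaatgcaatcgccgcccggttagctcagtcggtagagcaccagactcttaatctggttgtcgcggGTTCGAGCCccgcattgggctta
tRNA gene WBGene00014305 summit: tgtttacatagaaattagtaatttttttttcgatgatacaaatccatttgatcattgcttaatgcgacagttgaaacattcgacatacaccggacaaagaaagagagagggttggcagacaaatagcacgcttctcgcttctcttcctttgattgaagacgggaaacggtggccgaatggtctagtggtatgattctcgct
21ur-5229: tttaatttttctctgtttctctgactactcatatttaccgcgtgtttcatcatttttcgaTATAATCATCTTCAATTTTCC
21ur-3160: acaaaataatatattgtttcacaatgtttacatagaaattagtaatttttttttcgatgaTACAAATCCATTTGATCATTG

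Neither of these piRNA genes has CTGTTTCA in the 60 bases upstream. For comparison, among summits within 200 bp of a piRNA gene that does have it, the highest signal was at 21ur-3187 in the left domain and at 21ur-11336 in the right. They are printed on their own strand, minus in both cases, at chrIV:5607749-5607829 and chrIV:13870552-13870632, with 60 bases upstream and the piRNA at the end. Capitals mark the motif core on either strand. These examples were picked with the values in view.
21ur-3187: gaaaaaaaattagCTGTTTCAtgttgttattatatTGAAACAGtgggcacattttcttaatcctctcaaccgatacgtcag
21ur-11336: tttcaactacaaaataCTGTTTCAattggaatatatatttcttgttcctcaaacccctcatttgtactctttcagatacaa
The summit by 21ur-3187 lay 109 bp from that piRNA gene and ranked 1584 by signal in the pooled list (signal 64.9). The summit by 21ur-11336 lay 5 bp away and ranked 2222 (signal 56.2). Peaks beside piRNA genes with an exact CTGTTTCA upstream thus ranked below the 10 leading peaks of each domain. All of those leading peaks ranked within the 750 highest of the pooled list.

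Peaks were fewer per Mb in the domains than on the rest of chromosome IV, and the difference lay in the right domain. The pooled list held 253 peaks per Mb in the domains and 303 on the rest of the chromosome, a ratio of 0.834. In bins of 100 kb the domains held 25.3 ± 9.99 peaks (SD, n = 62 bins) and the rest 30.4 ± 11.1 (SD, n = 112 bins). The SDs describe single bins and say nothing of how well the means differ. Bins of one chromosome are not replicates, and no test was made. The replicate lists gave ratios of 0.813 for replicate 1 and 0.847 for replicate 2. The replicate 2 list held 25036 peaks and that of replicate 1 held 30000, so densities per Mb are compared within a list.

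The left and right domains differed from each other. The left domain held 306 peaks per Mb, which is 1.01 times the density of the rest of chromosome IV in the pooled list, 0.968 times in replicate 1 and 1.02 times in replicate 2. The right domain held 217 peaks per Mb, and its ratios were 0.715 in the pooled list, 0.709 in replicate 1 and 0.727 in replicate 2. Per 100 kb bin this was 30.6 ± 10.8 (SD, n = 25 bins) on the left and 21.7 ± 7.66 (SD, n = 37 bins) on the right. The stretch between the domains held 314 peaks per Mb, the chromosome end before the left domain 290 and the short end after the right domain 269. The right domain was the lowest of these 5 segments in the pooled list and in each replicate.

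**Figure D1:**
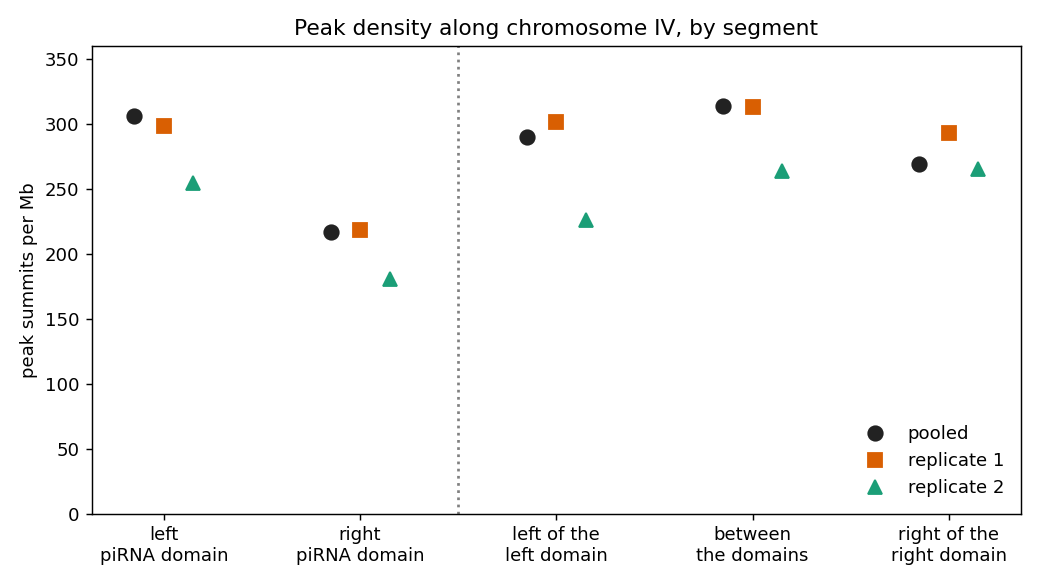
Peak summits per Mb (vertical axis) in the left and right piRNA domains, left of the dotted line, and in the 3 other segments of chromosome IV, right of it. Points stand for the pooled list and the list of each replicate, and the right domain is the lowest segment in all 3 lists, at 217 peaks per Mb in the pooled list.

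Windows placed at the same distances from the chromosome ends show what other chromosomes have there. For the right domain, the matching window held 194 peaks per Mb on chromosome V, 327 on X, 336 on II and 378 on III. Only chromosome V among these was below the 217 of the right domain. Chromosome I had 234 per Mb in that window, close to it. For the left domain, with 306 peaks per Mb, the matching windows held 290 on X and 315 to 376 on the autosomes. A density near that of the right domain was thus also found in the matching windows of chromosomes V and I. Over the whole chromosome, density was 255 per Mb on V, 324 on I and 285 on IV. What this means for the right domain was not tested.

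The domains also differ from the rest of the chromosome in sequence. Mean GC content was 33.0% in the domains and 35.5% on the rest, and 41.3% of domain bases against 36.0% of the rest were soft-masked as repeats in the reference. The right domain had the lower GC content of the pair, 32.3% against 34.0% in the left, and more soft-masked sequence, 45.4% against 35.4%. The part of these properties in the lower density of the right domain was not tested.

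Members were also somewhat weaker peaks. Signal, the peak caller's value for each peak, is given on the scale of its list, and its median was 24.0 in the domains and 25.8 on the rest of chromosome IV. As a percentile within the whole list, the median member stood at 43.7 and the median peak of the rest at 51.1. The replicates gave 45.7 against 51.5 in replicate 1 and 46.6 against 50.9 in replicate 2. The strongest 10% of the pooled list took 130 members (8.29%, 95% Wilson interval 7.03 to 9.76) and 330 peaks of the rest (9.64%, 8.70 to 10.7), and these intervals overlap. The right domain was again the lower of the pair, with a median percentile of 40.6 against 47.1 in the left domain. The replicates gave 43.4 against 50.0 in replicate 1 and 44.9 against 48.7 in replicate 2. The short end after the right domain was lower still in the replicates, at 42.1 and 38.9. In the pooled list it stood at 50.05 (79 peaks).

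In the thresholded list, the 750 peaks kept by the irreproducible discovery rate procedure, there were 29 members, 14 in the left domain and 15 in the right. This is 1.85% of members (95% Wilson interval 1.29 to 2.64), against 2.28% of the rest of chromosome IV (78 peaks, 1.83 to 2.83) and a background of 2.5% over the whole pooled list. The member share was thus near the background and within the interval of the rest.

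Peaks did not gather at piRNA genes, and most bands close to them held fewer peaks than sequence farther away. Within 200 bp of a piRNA gene lay 495 of the 1568 members (31.6%, 95% Wilson interval 29.3 to 33.9), while 46.4% of domain bases are that close, a ratio of 0.680. Over all nuclear peaks the share that close to a piRNA gene was 2.08%, which reflects where piRNA genes are. The ratio was 0.716 in replicate 1 and 0.707 in replicate 2. Each domain showed it, with 0.707 on the left (163 peaks) and 0.720 on the right (332 peaks). On the rest of chromosome IV, where piRNA genes are few, 48 peaks (1.40%, 1.06 to 1.85) lay that close against 1.57% of bases, a ratio of 0.891.

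By distance, density was 156 peaks per Mb within 50 bp of a piRNA gene, 184 between 50 and 200 bp, 262 between 200 and 500 bp, 264 between 500 and 1000 bp, 246 between 1000 and 2000 bp and 413 beyond 2000 bp. The bands nearest to piRNA genes were thus the lowest and the farthest band the highest. Replicate 1 gave 160 within 50 bp and 399 beyond 2000 bp, and replicate 2 gave 143 and 321. The median member lay 563 bp from a piRNA gene, against 239 bp for the median domain base.

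**Figure D2:**
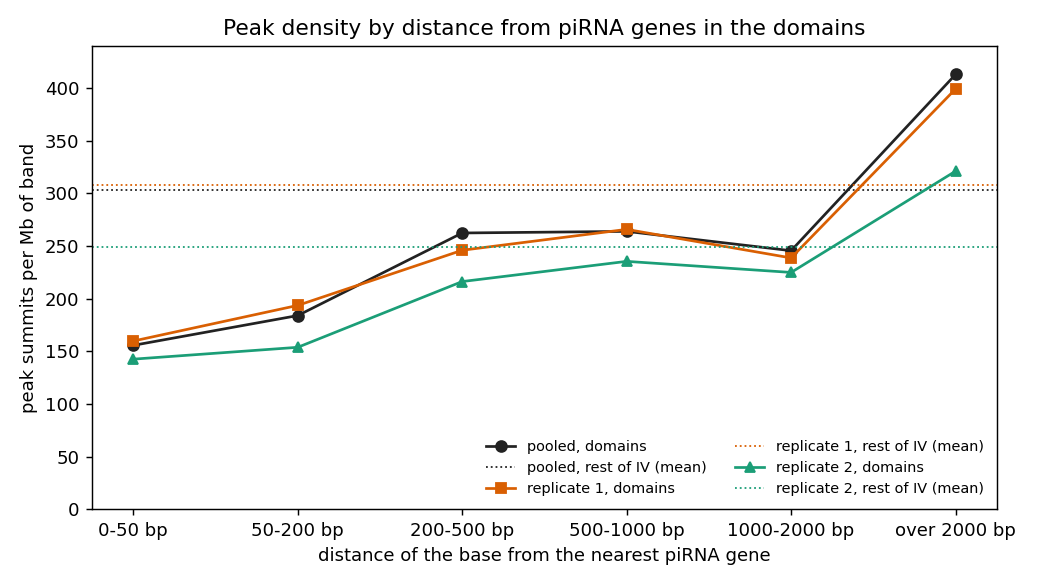
Peak summits per Mb of domain sequence (vertical axis) in bands of distance from the nearest piRNA gene (horizontal axis), with a line for the pooled list and for each replicate and a dotted line at the mean of the rest of chromosome IV for each. All 3 lists are lowest within 50 bp, at 143 to 160 peaks per Mb, and highest beyond 2000 bp.

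Within 200 bp of piRNA genes the domains held 172 peaks per Mb and farther away 323, a ratio of 0.532 (0.575 in replicate 1, 0.564 in replicate 2). The domain sequence away from piRNA genes was at 1.07 times the density of the rest of chromosome IV in the pooled list, 1.01 times in replicate 1 and 1.06 times in replicate 2. Taken over all GC contents and both domains, domain sequence away from piRNA genes was thus not below the rest of chromosome IV. By domain, this ratio to the rest was 1.14 in the left (1.08 in replicate 1, 1.15 in replicate 2) and 0.986 in the right (0.940 and 0.961). The right domain was thus slightly below the rest in each list. At low GC content the domains together were also below it, as given in the next paragraphs. In the right domain the values were 156 near and 299 far, and in the left 217 near and 345 far.

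Near bases differ from far bases in ways that move with peak density. Mean GC content was 29.6% near piRNA genes and 35.9% away from them, and 45.5% against 37.7% of bases were soft-masked. Near and far bases were therefore also set side by side in 5 classes of GC content with equal shares of domain bases, a comparison chosen after seeing the data. Ratios of near to far density in the pooled list were 0.804 below 26.4% GC, 0.788 up to 29.9%, 0.518 up to 33.8%, 0.598 up to 39.3% and 0.730 above that. Below 29.9% GC, where most near bases lie, the ratio was closer to 1 than the 0.532 of all bases.

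That comparison was less even by replicate and domain. In replicate 2 the ratios of the 2 lowest classes were 0.933 and 1.01, and that of the highest was 0.920. In the right domain the lowest class gave 1.40 in the pooled list, with only 16 far peaks, and in the left domain the highest gave 1.06, with 25 near peaks. For the right domain the ratios of the 2 lowest classes were 0.971 and 1.00 in replicate 1 and 1.28 and 1.60 in replicate 2, with 26 and 30 far peaks in replicate 1 and 13 and 18 in replicate 2. At low GC content the ratio in the right domain was thus near 1 in replicate 1 and above 1 in replicate 2, and over both domains it was near 1 in replicate 2. Outside soft-masked sequence the ratio was 0.477, and inside it 0.652.

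Sequence of the domains away from piRNA genes was also set against the rest of chromosome IV at equal GC content. From the lowest class to the highest, its density over that of the rest was 0.747, 0.823, 1.19, 1.10 and 1.08 in the pooled list. The 2 lowest classes gave 0.766 and 0.924 in replicate 1 and 0.606 and 0.722 in replicate 2. In the right domain the 2 lowest classes gave 0.394 and 0.757 in the pooled list, with 16 and 38 far peaks. They gave 0.602 and 0.664 in replicate 1 and 0.403 and 0.446 in replicate 2. The left domain gave 1.16 and 0.874 in the pooled list. Its values were 0.959 and 1.12 in replicate 1 and 0.845 and 0.935 in replicate 2. At low GC content, sequence of the right domain away from piRNA genes thus held fewer peaks than the rest in each list. The left domain varied with the list and the class.

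The number of piRNA genes nearby ranked densities in the same direction. With no piRNA gene within 1000 bp, domain sequence held 371 peaks per Mb. With 1 gene it held 262, with 2 to 4 genes 231, with 5 to 9 genes 196 and with 10 or more 159. Both replicates kept this order, with 360 at no gene and 152 at 10 or more in replicate 1 and 297 and 135 in replicate 2. In the left domain alone the middle classes were alike, with 249, 261 and 244 peaks per Mb for 1, 2 to 4 and 5 to 9 genes, and its class of 10 or more held only 9 peaks.

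Over 100 kb bins of chromosome IV, Spearman's rho between the number of piRNA genes and the number of pooled peaks was −0.30 (174 bins), and over the domain bins alone −0.44 (62 bins). Over bins of the rest it was −0.08 (112 bins). Replicate 1 gave −0.35 over the chromosome, −0.46 over the domain bins and −0.13 over the rest, and replicate 2 gave −0.19, −0.42 and 0.096. The value of the rest thus changed sign with the replicate, and with 250 kb bins it was 0.21 in the pooled list (44 bins). Added after seeing the data, rho within a domain was −0.14 in the left (25 bins; −0.10 in replicate 1, −0.083 in replicate 2) and −0.28 in the right (37 bins; −0.31 and −0.18). Both were closer to 0 than the −0.44 over the domains together. These are descriptions of bins that share base composition and gene content with their neighbours. In the left domain, bins with the fewest piRNA genes held 34.6 ± 9.30 peaks (SD, n = 8 bins), the middle group 26.2 ± 13.8 (SD, n = 9 bins) and those with the most 31.6 ± 6.82 (SD, n = 8 bins). In the right domain these groups held 24.1 ± 7.28 (SD, n = 12 bins), 20.8 ± 7.92 (SD, n = 13 bins) and 20.3 ± 7.82 peaks (SD, n = 12 bins). The left domain showed no steady order, with its lowest mean in the middle group.

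**Figure D3:**
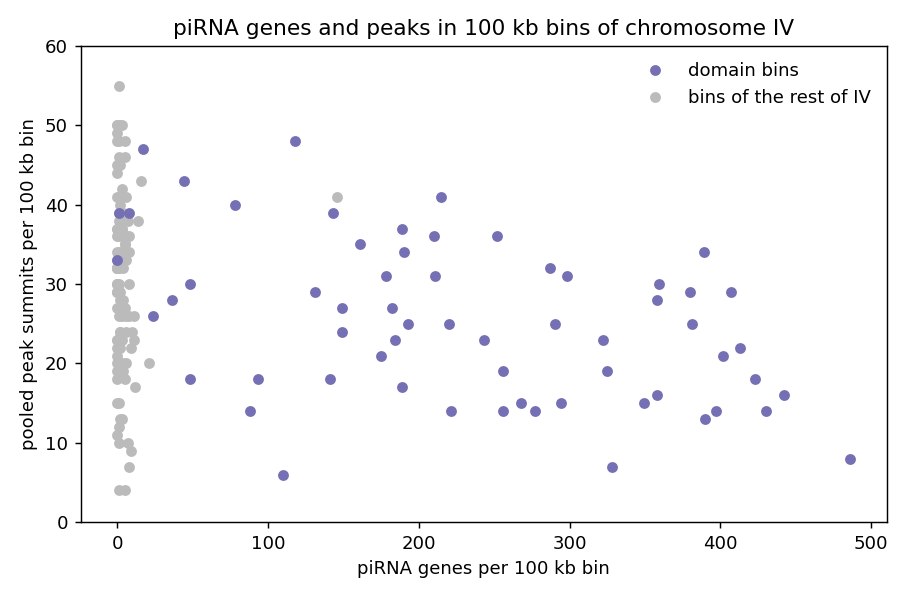
Each point is a 100 kb bin of chromosome IV, with its number of piRNA genes (horizontal axis) and of pooled peak summits (vertical axis), for the 62 domain bins and the 112 bins of the rest. Bins with over 200 piRNA genes held between 7 and 41 peaks, inside the range of the other bins.

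The position of summits around piRNA starts had no peak at the start. Per Mb, summits numbered 278 at 201 to 500 bp upstream of the nearest start, 187 at 101 to 200 bp and 152 at 1 to 100 bp upstream, where the motif lies. Downstream there were 173 at 0 to 99 bp, 203 at 100 to 199 bp and 226 at 200 to 499 bp. The lowest pooled density was thus in the 100 bp before the piRNA start, with 141 summits against 157 at 0 to 99 bp downstream. The replicates were not counted this way, and the difference between these neighbouring stretches was not tested.

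Seen from the genes, 913 of the 14204 domain piRNA genes (6.43%, 95% Wilson interval 6.04 to 6.84) had a pooled summit within 200 bp, and 47 of 510 on the rest of the chromosome (9.22%, 7.001 to 12.04). Neighbouring piRNA genes can share a summit. CTGTTTCA occurred in the 60 bp upstream of 4944 domain piRNA genes, which is 34.8% of them. Only exact matches were counted, so genes with a near match upstream fell in the class without it. A summit lay within 200 bp of 6.59% of these (5.94 to 7.32) and of 6.34% of those without it (5.86 to 6.85). In the pooled list and in replicate 1 (6.78% and 6.48%), the shares with and without the motif differed by less than their counting error. In replicate 2 they were 6.09% and 5.46%. Because the class without it also holds near matches, these shares cannot decide whether peaks follow the motif.

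Motif letters were also counted in the 201 bases around each summit and in tiles of that length over the same territory, on both strands. CTGTTTCA was found in 9.95% of member windows (95% Wilson interval 8.56 to 11.5), against 14.6% of domain tiles. On the rest of chromosome IV these shares were 1.17% and 1.54%. TTTTTT was found in 62.4% of member windows and 69.8% of domain tiles, against 56.7% and 60.7% on the rest. GTTCGANNC, the B box of tRNA genes, which can also occur by itself, was found in 2.87% of member windows (2.15 to 3.82) and 1.10% of domain tiles, against 2.16% and 1.54% on the rest. Of the 3 motifs, the B box was the only one found in a larger share of member windows than of domain tiles. Summit windows held more GC than the territory around them, 36.3% on average for members and 37.8% for the rest.

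Among members, the strong peaks were those away from piRNA genes. In the strongest 20% of members by pooled signal, 13.7% (95% Wilson interval 10.3 to 17.9) lay within 200 bp of a piRNA gene. The following steps of 20% had 27.2%, 40.4%, 36.4% and 40.1%. Replicate 1 gave 13.5% in its strongest 20% and 44.7% in its weakest, and replicate 2 gave 18.3% and 38.3%. The median GC content of the summit windows was 39.8% in the strongest 20% and 32.8% in the weakest, and its part in this order was not tested. Members within 200 bp of a piRNA gene had a median signal of 22.2 and those farther away 25.5.

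**Figure D4:**
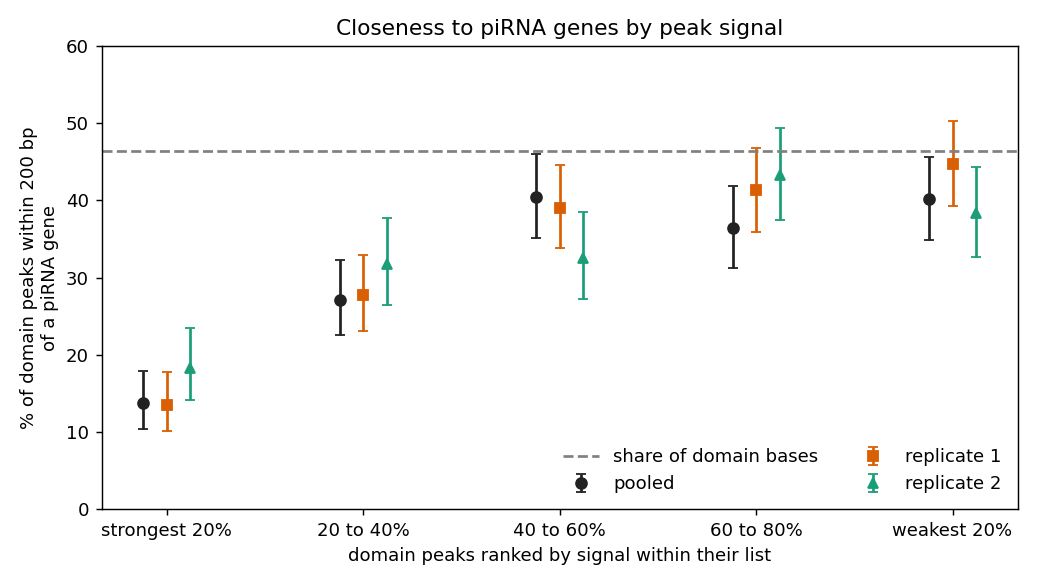
Share of domain peaks within 200 bp of a piRNA gene (vertical axis, percent) by steps of 20% of signal rank within each list, strongest on the left. Bars are 95% Wilson intervals for counting error only, the dashed line is the 46.4% of domain bases that close, and the strongest 20% is the lowest in all 3 lists.

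The strongest members near piRNA genes were often tRNA gene peaks. The summit shown above beside 21ur-5229 had a signal of 137 and ranked 218 in the pooled list, 321 in replicate 1 and 240 in replicate 2. It lay 25 bp from the piRNA gene and within 200 bp of the tRNA gene WBGene00022903. It was the only thresholded member within 200 bp of a piRNA gene. In the right domain the highest, by 21ur-3160, had a signal of 70.2 and ranked 1097 and 4290 in the replicates. That summit also lay by a tRNA gene, WBGene00014305.

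Of the 5 highest piRNA-near members in each domain, others by tRNA genes were the peak at 21ur-753 with WBGene00014606 (signal 64.9) and that at 21ur-3939 with WBGene00014561 (signal 64.3), both in the right domain. The remaining members of this group lay by protein-coding genes. They included a UTR of fkh-7, a forkhead transcription factor gene (signal 64.9), a UTR of lin-66 (signal 61.3) and an intron of nhr-46, a nuclear hormone receptor gene (signal 49.7). Their replicate ranks differed widely, as for the lin-66 UTR peak at rank 13466 in replicate 1 and 531 in replicate 2. In all, 7 members lay within 200 bp of both a piRNA gene and a tRNA gene, and 5 of them were among the 12 piRNA-near members in the strongest 10% of the pooled list.

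Genes for tRNAs, which RNA polymerase III transcribes, had peaks throughout the domains. Within 200 bp of a tRNA gene lay 37 members (2.36%, 95% Wilson interval 1.72 to 3.24), against 0.306% of domain bases. On the rest of chromosome IV there were 28 such peaks (0.818%, 0.567 to 1.18), against 0.125% of bases. Of the 41 tRNA genes of the domains 31 had a pooled summit that close, and 30 in each replicate. Of the 30 on the rest, 24 had one. Among thresholded peaks 5 of the 29 members and 5 of the 78 peaks of the rest lay by a tRNA gene.

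Genes for small nucleolar RNAs, which guide RNA modification, had 10 pooled member peaks at 9 of 18 genes. On the rest there were 23 peaks at 16 of 41 genes. The peaks were 0.638% of members against 0.162% of domain bases, and 0.672% against 0.186% on the rest. None of these reached the thresholded list in the domains, against 10 peaks on the rest. With 29 thresholded members, 0 peaks leave an upper bound of 11.7% (95% Wilson). Small nuclear RNA genes had member peaks at 7 of 16 genes and microRNA genes at 3 of 19, against 10 of 25 and 6 of 31 on the rest. Small nuclear RNA genes took 0.574% of members against 0.130% of domain bases, and 0.409% against 0.107% on the rest. For microRNA genes it was 0.255% of members (95% Wilson interval 0.0992 to 0.654) against 0.142% of bases, which lies inside the interval. On the rest microRNA genes took 0.204% (0.0991 to 0.422) against 0.131%, also inside it.

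By location at protein-coding genes, promoters stood above their share of bases by similar ratios in the domains and on the rest of the chromosome. Coding exons and introns stood above theirs in the domains and near theirs on the rest. Promoter windows, which reach 500 bp before and 200 bp past a gene start, held 239 members (15.2%, 95% Wilson interval 13.5 to 17.1) and 675 peaks of the rest (19.7%, 18.4 to 21.1), and 18.5% of all nuclear peaks. These windows make up 10.03% of domain bases and 13.5% of the rest, which gives ratios of share of summits to share of bases of 1.52 in the domains and 1.46 on the rest. In replicate 1 the ratios were 1.45 and 1.49, and in replicate 2 they were 1.53 and 1.39. The order of domains and rest therefore changed with the replicate.

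Coding exons held 18.5% of members against 14.9% of domain bases, and 22.6% of peaks against 22.8% of bases on the rest. The ratio for coding exons was 1.24 in the domains and 0.993 on the rest, with 1.21 and 1.00 in replicate 1 and 1.34 and 1.05 in replicate 2. UTRs held 4.40% of members against 2.26% of bases, and on the rest 6.16% against 3.56%. Introns held 32.2% of members against 28.3% of bases, and on the rest 32.7% against 33.1%. The ratio for introns was 1.14 in the domains and 0.988 on the rest, with 1.17 and 0.952 in replicate 1 and 1.06 and 0.953 in replicate 2. By domain, pooled ratios were 1.05 for coding exons and 1.04 for introns in the left, and 1.40 and 1.23 in the right. In pooled peaks per Mb, coding exons held 314 in the domains and 301 on the rest, and introns 288 and 299. Coding exons held 303 and 308 in replicate 1 and 283 and 262 in replicate 2, so their order changed with the list. Introns held 292.7 and 292.9 in replicate 1 and 223 and 237 in replicate 2. Intron density was thus not higher in the domains. Sequence outside protein-coding genes held 29.7% of members against 44.5% of bases, and on the rest 18.8% against 27.1%. It was the location furthest below its share of bases in both, while coding exons and introns of the rest were near theirs.

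Density near piRNA genes was lower at every location in the pooled list. In promoter windows there were 199 peaks per Mb within 200 bp of a piRNA gene and 476 farther away, against 444 on the rest of chromosome IV. Ratios of near to far density were 0.417 in promoters, 0.483 in coding exons, 0.525 in UTRs, 0.705 in introns and 0.595 outside genes. Replicate 1 had all 5 ratios between 0.426 and 0.697. In replicate 2 they lay between 0.442 and 0.760 apart from UTRs, where near and far densities were equal (1.00, 17 near peaks).

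**Figure D5:**
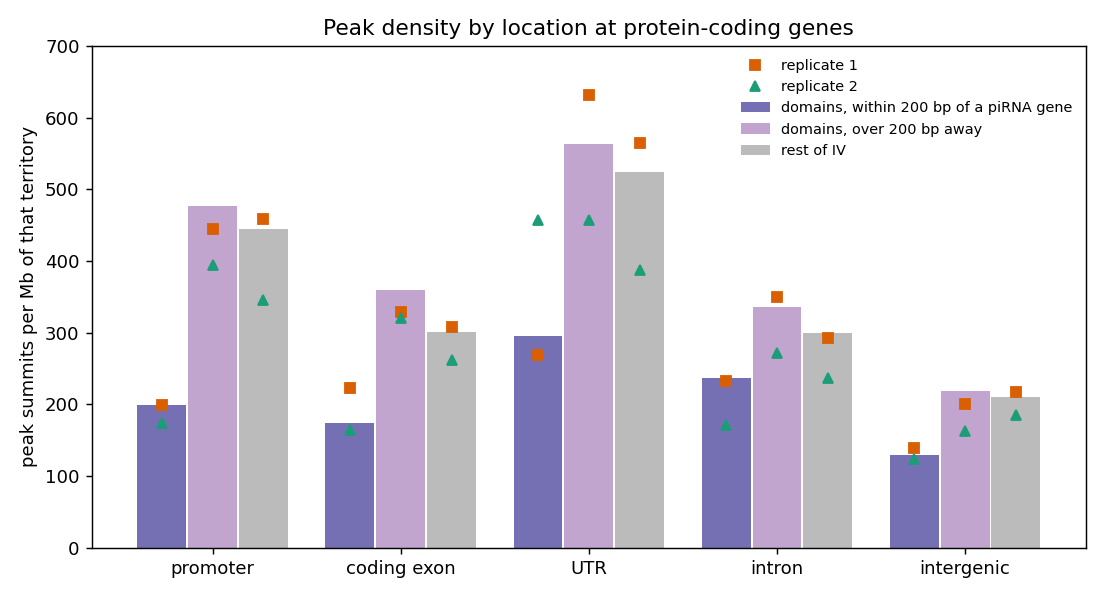
Peak summits per Mb (vertical axis) by location at protein-coding genes, for domain sequence within 200 bp of a piRNA gene, domain sequence farther away, and the rest of chromosome IV. Bars are the pooled list and symbols the replicates, and the near bars are the lowest at each location, at 199 per Mb in promoters against 476 farther away.

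Of the 941 protein-coding genes that start in the domains, 222 had a pooled summit in their promoter window (23.6%, 95% Wilson interval 21.0 to 26.4). On the rest of chromosome IV it was 636 of 2340 genes (27.2%, 25.4 to 29.0), and over all nuclear genes 26.2%. When the window also held 1 or more piRNA genes, 57 of 405 domain genes had a summit (14.1%, 11.0 to 17.8). When it held none, 165 of 536 had one (30.8%, 27.02 to 34.8). These intervals cover counting error only, and genes of a list are not replicates. The shares were 13.1% and 28.5% in replicate 1 and 10.4% and 27.2% in replicate 2. The part of GC content, which is lower near piRNA genes, in this difference was not tested. Thresholded promoter summits were found at 13 of the 941 domain genes, 1.38% (0.809 to 2.35) against 1.64% of all nuclear genes, and all 13 were among genes without a piRNA gene in the window.

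Promoter summits were counted in gene families chosen by name. Ribosomal protein genes had a pooled promoter summit at 4 of 5 domain genes (rpl-20, rpl-29, rps-18 and rps-25), against 12 of 12 on the rest of chromosome IV. Chemoreceptor genes, which encode receptors of sensory neurons, had one at 2 of 45 domain genes and 1 of 36 on the rest. Genes of major sperm proteins, made in the male germline, had none at 9 domain genes and 1 of 9 on the rest. Collagen genes of the cuticle had 0 of 6 in the domains and 4 of 35 on the rest, C-type lectin genes 1 of 9 and 1 of 44, nuclear hormone receptor genes 1 of 5 and 8 of 28, and F-box genes 0 of 7 and 1 of 20. The other sperm gene names searched had 0 of 7 and 3 of 10. Numbers of genes per family are small, and the families are set beside the 23.6% of all domain genes.

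The strongest member lay in the left domain upstream of rpl-20, a gene for a large ribosomal subunit protein, and of the oppositely placed Y17G9B.5. Its summit, at 4750066, was 288 bp before the start of rpl-20 and 174 bp before that of Y17G9B.5. It had a signal of 347 and ranked 27 in the pooled list, 34 in replicate 1 and 29 in replicate 2. The nearest piRNA gene was 17638 bp away. Also leading the left domain were 3 peaks within a few kb of each other by K08F11.1, with signals of 169, 150 and 148. The last of these had no summit within 200 bp in replicate 1 and ranked 108 in replicate 2. It was the only thresholded member without a summit that close in a replicate. Its interval overlaps that of the peak with signal 150, which ranked 232 in replicate 1.

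Other leading members of the left domain were a promoter peak at Y73B6BL.29 (signal 155) and one at the shared promoter of F29B9.11 and jmjd-1.2, a histone demethylase gene (signal 125). The first ranked 136 in replicate 1 and 510 in replicate 2, the second 310 and 351. A peak 703 bp inside tyr-6, a tyrosinase gene, lay by the tRNA gene WBGene00023192 (signal 105). Intergenic peaks by ipla-6 (signal 111) and vha-8, a subunit gene of the vacuolar proton pump (signal 110), completed the 10 highest of that domain together with the tRNA gene peak by 21ur-5229.

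In the right domain the strongest member lay 90 bp upstream of ntl-11, a subunit gene of the CCR4-NOT complex that shortens poly(A) tails. It had a signal of 144 and ranked 195 in the pooled list, 143 in replicate 1 and 578 in replicate 2. An intron of Y57G11C.22 followed (signal 129, ranks 288 and 356), then the promoter of lin-66, a gene of larval developmental timing (signal 126, ranks 291 and 289). A peak by cel-mir-52, a microRNA of the mir-51 family, had a signal of 121 and ranked 438 and 267. Peaks by the tRNA genes WBGene00014560 and WBGene00014324 had signals of 119 and 113.

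The remaining leading peaks of the right domain were an intergenic peak near sec-61.A, a translocation channel gene (signal 112), introns of ari-1.4 (signal 109) and zip-7, a bZIP transcription factor gene by its name (signal 107), and a promoter shared by 2 genes without a given name (signal 104). Of the 20 leading members of both domains, the peak in Y57G11C.22 lay 308 bp from a piRNA gene and the tRNA gene peak by 21ur-5229 lay 25 bp away. The other 18 were between 488 and 30188 bp away.

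Of the 29 thresholded members, 10 lay in promoter windows, 13 outside protein-coding genes, 5 in introns, 1 in a coding exon and none in a UTR. Other thresholded promoter peaks, beyond the leading ones above, lay at sqd-1, C49A9.10, fcd-2, the gene of the Fanconi anemia protein D2, and try-3. The try-3 summit was also within 200 bp of the tRNA gene WBGene00022959. Of the 29, 28 were found in both replicates, with a median rank of 434.5 in replicate 1 (28 peaks, 34 to 5051) and 578 in replicate 2 (29 peaks, 29 to 1519). As many strongest peaks of a replicate as the thresholded list holds, 750, included a summit for 24 of the 29 in replicate 1, for 21 in replicate 2 and for 17 in both. These peaks were chosen by the pooled signal, so that finding them in the replicates is not independent of the choice.

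Replicates matched somewhat less well in the domains, although the intervals for replicate 2 overlap those of the rest. The replicate 2 list was the shorter, 25036 peaks against 30000, so it offered fewer summits to match than replicate 1. A replicate summit within 200 bp was found for 67.1% of members in replicate 1 (95% Wilson interval 64.7 to 69.4) and for 52.7% in replicate 2 (50.2 to 55.1). The rest of chromosome IV had 71.3% (69.7 to 72.7) and 54.6% (53.0 to 56.3), and all nuclear peaks 70.6% and 54.4%. Both replicates had a summit for 31.4% of members (29.2 to 33.8) and 36.1% of the rest (34.5 to 37.7). Members within 200 bp of a piRNA gene were found in both for 19.8% (16.5 to 23.5), and those farther away for 36.8% (34.0 to 39.7). Among the strongest 10% of the pooled list it was 94.6% of members and 95.5% of the rest, whose intervals overlap. Compared directly, 493 of the 1552 replicate 1 peaks in the domains had a replicate 2 summit within 200 bp, with Spearman's rho of the signals 0.427, against 1222 of 3476 and 0.388 on the rest. These correlations are across peaks and carry no test.

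Genes of the piRNA pathway itself were looked at as a fixed list of 22, of which 21 matched the annotation by name. The 21 matched genes lie outside the domains. The gene prg-2 did not match, so its place was not determined. In the pooled list 7 of the 21 had a promoter summit, beside 26.2% of all nuclear genes, and none had a thresholded one, beside 1.64%. They were tofu-1 (signal 62.3), tofu-7 (signal 47.7), tofu-6 (signal 20.8), parn-1, which encodes the trimming enzyme of piRNA 3′ ends (signal 19.7), henn-1, the 3′ end methyltransferase gene (signal 17.8), hrde-1, a nuclear Argonaute gene (signal 33.7) and unc-130, a forkhead factor gene (signal 31.9). Only tofu-1, tofu-6, tofu-7 and unc-130 had a promoter summit in both replicates as well. Promoter windows of prg-1, snpc-4 and prde-1 held no summit in any of the lists.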

How the data were processed

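ChIP-seq peak lists in the ce11 build were used, for each of 2 replicates, both pooled and thresholded. Per the labels, the authors deposited narrowPeak lists of peaks together with background, the input of the irreproducible discovery rate procedure. The signal of each peak (column 7) is the deposited value of the peak caller on the scale of its list, so it was ranked within a list. The deposited −log10 q-value (column 9) reached its ceiling of 2.47 at strong peaks and served as an alternative ranking. Summits came from the deposited offset (column 10). For aligner and peak caller, no name is given in the sources used here. The ce10 lists were not used. The lists hold no read counts, so depth is unknown, and 95% Wilson intervals cover counting error only.

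Summits were placed by WBcel235 and Ensembl release 115, promoters before coding exons, then UTRs, introns and intergenic sequence, with Python 3.11.15, numpy 2.4.6, pandas 2.3.3 and scipy 1.17.1. Densities are summits per Mb, and shares are set beside the share of bases. GC content was taken over 201 bases. Peaks of a list are not replicates, so no test was made and no p-value is given. Density functions were tested on simulated data. Members, gene lists and comparisons were chosen with earlier results of these data known. Named items are the 10 highest members of each domain, the 5 highest within 200 bp of a piRNA gene in each, the thresholded members and the listed genes with a promoter summit. Others were chosen after their values were seen. Alternatives were each replicate alone, other bounds, distances, windows, bin sizes and subsets by signal, location, GC content and masking.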

Additional observations from a re-analysis of the deposited data

How the results depend on the processing

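Of 48 alternative settings, 18 were counted as leaving the value the same, 29 moved it and 1 reversed it. The same meant a change within the spread, where there was one. The 18 include counting each distinct interval once, which could change nothing because no interval was repeated. They also include the number of thresholded members, 29, which had no spread and was 30 and 28 in the single replicates. The spread was the SD of the values of the single replicates, so these counts depend on how alike the replicates were. For the ratio at piRNA genes it was 0.00608, and each replicate alone counted as moved. The ratio of peak density, domains over the rest of chromosome IV, was 0.834. It turned to 1.06 over bases more than 200 bp from any piRNA gene. It was 0.810 with bounds drawn in by 250 kb, 0.714 in the stronger 50% of the list, 0.677 in the thresholded list and 0.877 with summits within 1000 bp counted once. The difference in median signal percentile, domains minus the rest, −7.36, was −5.83 and −4.32 in the single replicates. The ratio at 200 bp from piRNA genes, 0.680, lay between 0.707 and 0.716 in single replicates. It was 0.709 with narrower bounds, 0.457 in the stronger 50% and 0.0743 in the thresholded list (1 peak). Within 50, 100, 500 and 1000 bp it was 0.615, 0.636, 0.770 and 0.803. It was 0.780 in intergenic and intronic sequence, 0.772 in intergenic sequence, 0.616 outside soft-masking, 0.941 in the 20% of bases lowest in GC content and 0.761 in the highest. The promoter ratio, 1.52, lay between 1.45 and 1.53 in single replicates, and was 2.05 in the stronger 50%, 3.44 in the thresholded list, 1.70 with windows reaching 200 bp before and 100 bp past the start and 1.30 with 1000 bp upstream. The share found in both replicates, 31.4%, was 12.1%, 20.7% and 47.6% at 50, 100 and 500 bp. The bin correlation, −0.30, was −0.44 inside the domains. Settings on intergenic sequence alone, soft-masking, GC classes, distance from piRNA genes in the density ratio and summits counted once were chosen after seeing the data.

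Causes of these changes were not tested. The lists give no depth and no control, and how well reads can be placed in piRNA-dense sequence was not measured here. Counting each distinct interval once changed nothing on chromosome IV, where no interval was repeated. No paired analysis was possible because the samples form 1 group.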
